A study of Homo sapiens with 4 samples.

Results

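The apoptotic caspases and death receptors described here are 8 genes of 22148 in the annotated background of the GO tables. They are CASP6, CASP8, CASP9, CASP10, FAS, TNFRSF10A, TNFRSF10B and TNFRSF1A, and they were chosen by name for their roles in apoptosis. A gene was counted as listed in a cell line when its Ensembl identifier stood under at least 1 GO term of the table for that line, that is, when the authors had called it a differentially expressed mRNA at an adjusted p-value under 0.05. All 8 genes were accounted for. Of these, 4 (50.0%) were listed in HepG2, where 21.6% of all background genes were, and 2 (25.0%) in Huh7, where 19.7% were.

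HepG2 and Huh7 are cell lines derived from human liver tumours. RNA was sequenced after removal of ribosomal RNA in 4 groups with 1 library each. Group A was untreated HepG2 cells and group C untreated Huh7 cells. Groups B and D were the same lines after sonodynamic therapy (SDT), in which low-frequency ultrasound activated the sensitizer HMME, delivered with the drug LND (lonidamine) in nanobubbles. The tables compared B with A and D with C, so nanobubbles, HMME, LND and ultrasound were changed together and their parts cannot be told apart. There were no replicates. Expression levels and the direction of a change were not used here, so the values are list memberships and numbers of genes.

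Death receptors are members of the TNF receptor family with a cytoplasmic death domain. When a ligand such as Fas ligand, TRAIL or TNF binds, adaptors assemble on this domain and recruit initiator caspases, which cleave and activate executioner caspases, whereas in the mitochondrial arm cytochrome c released into the cytosol activates caspase-9 on the apoptosome. Decoy receptors bind the same ligands without passing on the death signal, and hepatocytes are known for their sensitivity to signaling through Fas.

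In HepG2, CASP6, CASP10, FAS and TNFRSF10B were listed, which is 4 of 8 genes (50.0%), against 4783 of 22148 background genes (21.6%). In Huh7, CASP6 and TNFRSF10B were listed, which is 2 of 8 genes (25.0%), against 4369 background genes (19.7%). Both genes listed in Huh7 were also listed in HepG2. The 2 shared genes were 50.0% of the HepG2 genes and 100% of the Huh7 genes among the 8, where 2281 of all 22148 genes (10.3%) were in both lists, 47.7% of the HepG2 list and 52.2% of the Huh7 list. CASP8, CASP9, TNFRSF10A and TNFRSF1A were in neither list. With 8 genes, 1 gene more or fewer moves a share by 12.5 percentage points, and the count in Huh7 was near its background. A gene that was not listed may have been tested and not called, not tested or not annotated, which the tables do not separate.

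**Figure D1:**
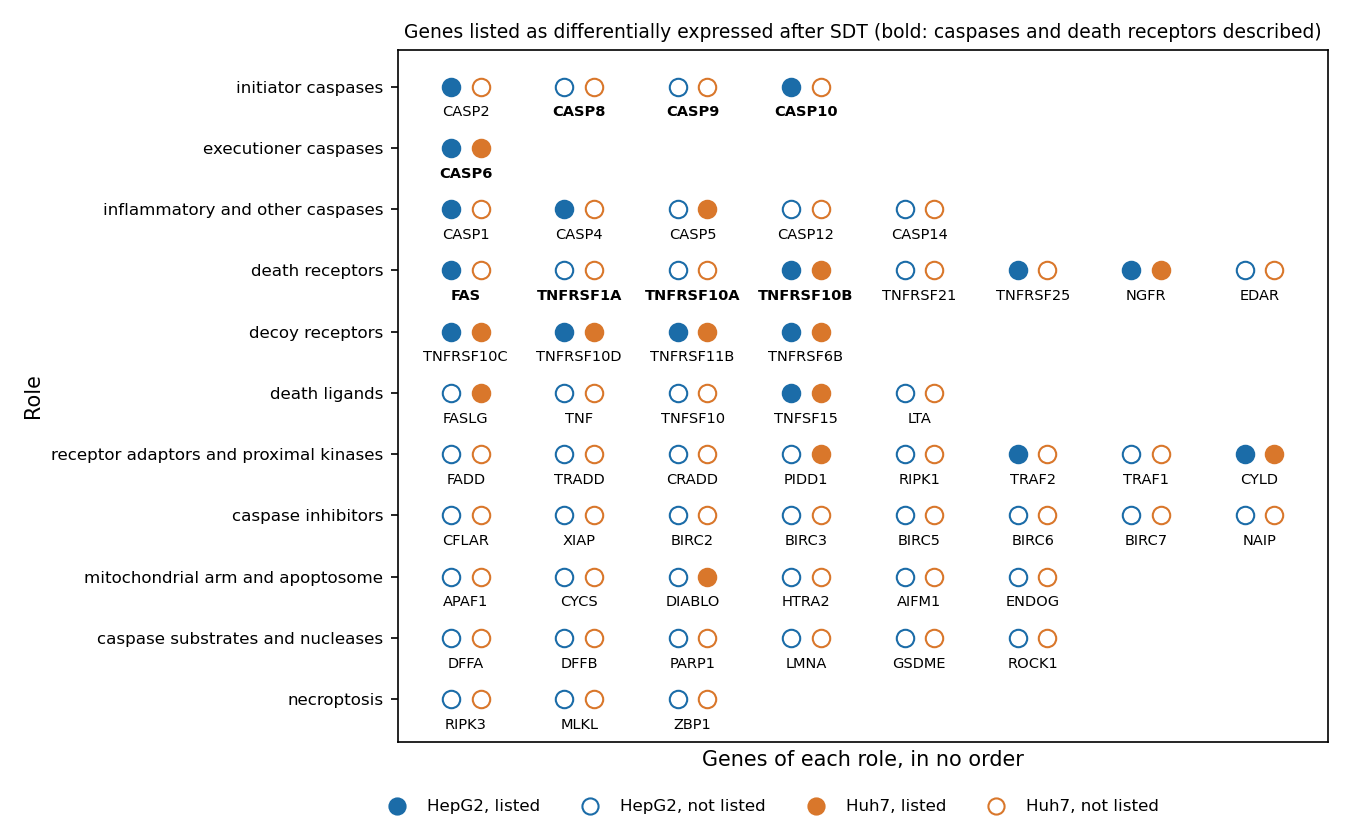
Each gene is drawn with 1 circle for HepG2 (blue) and 1 for Huh7 (orange), filled where the gene was listed after SDT, with rows for the roles of the genes. The 8 genes described are in bold, with 4 filled in HepG2 and 2 in Huh7, and all 4 decoy receptors are filled in both lines.

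Among 5 death ligands, TNFSF15 was listed in both lines and FASLG, which encodes Fas ligand, in Huh7. TNF, LTA and TNFSF10, the gene of TRAIL, were in neither list. FASLG was thus listed in the line in which its receptor FAS was not. The ligand counts were 1 of 5 (20.0%) in HepG2 and 2 of 5 (40.0%) in Huh7, against backgrounds of 21.6% and 19.7%, so HepG2 was near its background and Huh7 differed from it by about 1 gene.

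FAS (ENSG00000026103), the receptor of Fas ligand, was listed in HepG2. It stood under 205 GO terms, of which 150 were biological processes, 43 cellular components and 12 molecular functions, and in 20 KEGG pathways. FAS was 1 of 2 listed genes under the term CD95 death-inducing signaling complex, which has 6 background genes, and the other was CASP10. The same 2 genes were those listed under death-inducing signaling complex, with 9 background genes. These shares of 33.3% and 22.2% rest on 2 genes each, and the second is near the background of 21.6%. Neither term appears in the Huh7 table, where a term is present when at least 1 listed gene belongs to it, so on terms of this size an absence is a matter of 1 or 2 genes. The gene ACTA2 lies on the opposite strand and overlaps 380 of the 4253 exonic bases of FAS in GENCODE (8.93%). ACTA2 was listed in Huh7 and not in HepG2, the reverse of FAS. Whether the authors' counting used strand is not given in the sources used here, and the part of this overlap in the listing was not tested.

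TNFRSF10B (ENSG00000120889), a TRAIL receptor with a death domain, was listed in both lines. It stood under 155 GO terms in each, of which 136 were biological processes. The terms were the same in both tables, since they come from the annotation of the gene and not from the calls. For the same reason TNFRSF10B was in 6 KEGG pathways in each line. One of its narrowest terms was TRAIL binding, with 3 of 5 genes listed in both lines, and these were TNFRSF10B and the decoy receptors TNFRSF10C and TNFRSF10D. TNFRSF10A (ENSG00000104689), the other TRAIL receptor with a death domain, was in neither list, although it neighbours TNFRSF10D in the genome. Of the 4 TRAIL receptor genes, 3 were therefore listed in each line, against backgrounds of 21.6% and 19.7%, and 1 of the 3, TNFRSF10C, shares part of its sequence with other genes. The longest run of bases shared between transcripts of these genes was 36 for TNFRSF10A and TNFRSF10B, 39 for TNFRSF10B and TNFRSF10D and 45 for TNFRSF10C and TNFRSF10D, so that no stretch of 75 bases was common to any pair of them.

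TNFRSF1A (ENSG00000067182), the main receptor of TNF, was in neither list. TNF and the adaptors TRADD and RIPK1, which act directly with it, were not listed either. The KEGG pathway named for TNF signaling had 33 of 110 genes listed in HepG2 (30.0%) and 34 of 110 in Huh7 (30.9%), of which 19 were shared. Summed over all pathways, 26.3% were listed in HepG2 and 25.8% in Huh7. The 95% Wilson intervals of 22.2% to 39.1% and 23.0% to 40.1% hold these shares and cover counting error only. Over all listed genes the shared part was 47.7% in HepG2 and 52.2% in Huh7. CASP10 and FAS were among the 33 genes in HepG2, and none of the 8 genes was among the 34 in Huh7.

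Of all 8 death receptors looked for, 4 were listed in HepG2 (50.0%) and 2 in Huh7 (25.0%). The backgrounds were 21.6% and 19.7%, so the Huh7 count was near its background. Besides FAS and TNFRSF10B, the listed death receptors were NGFR, a neurotrophin receptor with a death domain, in both lines and TNFRSF25, the receptor of the TNFSF15 product, in HepG2. TNFRSF21 and EDAR were in neither list. The 4 decoy receptors, TNFRSF10C, TNFRSF10D, TNFRSF11B and TNFRSF6B, were all listed in both lines. That is 100% of a list of 4 genes against backgrounds of 21.6% and 19.7%. Not all of these calls rest on sequence that belongs to 1 gene. Every stretch of 75 bases in TNFRSF6B transcripts also occurs in the readthrough gene RTEL1-TNFRSF6B, and 68.1% of those in TNFRSF10C transcripts occur in no other gene. The length of a read is not given in the sources used here, and with stretches of 150 bases these shares were 0 and 76.4%. In contrast, the share found in no other gene was 99.9% for TNFRSF10D and 100% for TNFRSF11B. Among the death receptors it was lowest for NGFR, at 79.3% (86.4% with 150 bases), and it shares stretches with genes on the opposite strand. The listing of TNFRSF6B, TNFRSF10C and NGFR is therefore uncertain as to which gene gave the reads.

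**Figure D2:**
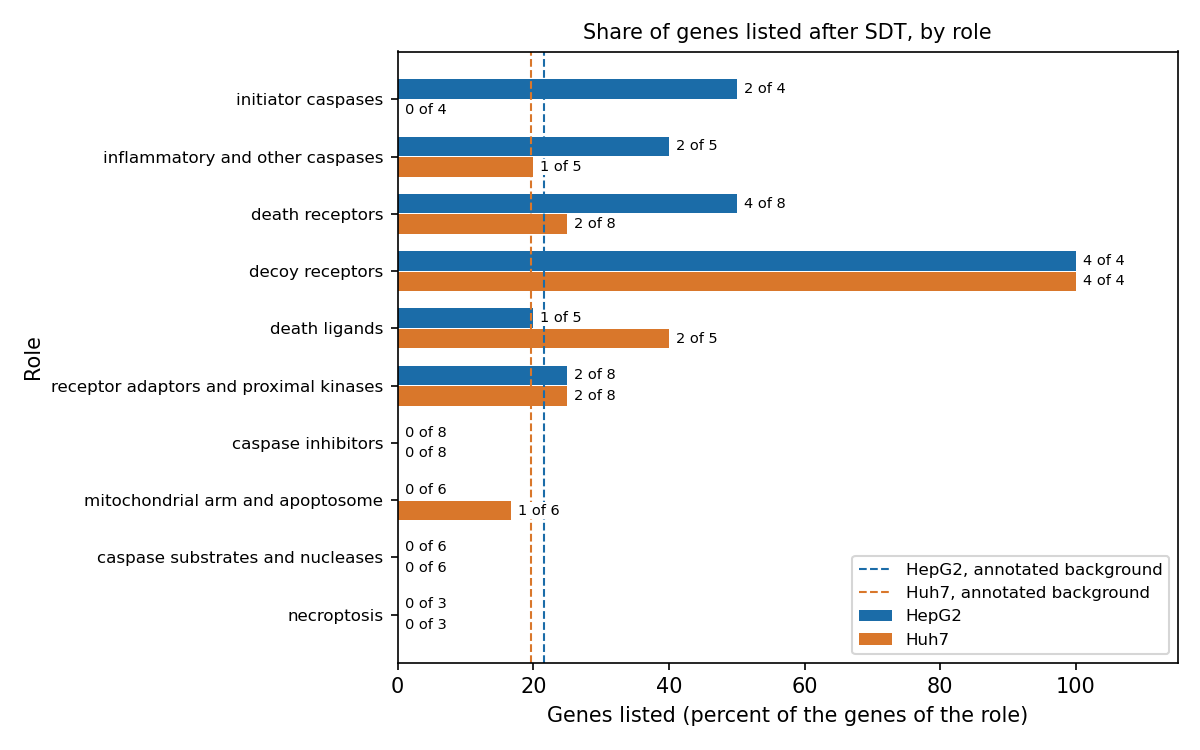
Bars give, for each role with at least 3 genes counted here, the percent of its genes that were listed in HepG2 (blue) and Huh7 (orange), with the number of genes beside each bar. Dashed lines mark the annotated background of 21.6% and 19.7%, and bars rest on 3 to 8 genes each.

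Between receptors and caspases stand the adaptors and proximal kinases, of which 2 of 8 (25.0%) were listed in each line, near the backgrounds of 21.6% and 19.7%. CYLD, a deubiquitinase that acts on receptor complexes, was listed in both. TRAF2, an adaptor of TNF receptors, was listed in HepG2, and PIDD1, which belongs to the complex that activates caspase-2, in Huh7. FADD, the adaptor that joins FAS and the TRAIL receptors to caspase-8 and caspase-10, was in neither list, and nor were TRADD, CRADD, RIPK1 and TRAF1.

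The caspases share a conserved stretch around the catalytic cysteine, and the coding bases of this stretch are shown because the 4 caspases described differed in their listing while being related in sequence. They were read from the GENCODE transcript with the longest reading frame of each gene. The capitals mark the 5 codons centred on the codon of the catalytic cysteine, with 5 codons on each side in lower case.
CASP6: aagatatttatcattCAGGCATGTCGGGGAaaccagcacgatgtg
CASP8: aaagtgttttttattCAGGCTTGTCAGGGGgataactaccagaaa
CASP10: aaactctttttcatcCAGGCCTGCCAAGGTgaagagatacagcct
CASP9: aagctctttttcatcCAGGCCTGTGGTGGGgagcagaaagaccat
Of the 45 bases, CASP8 and CASP10 had 28 in common (62.2%), CASP9 and CASP10 had 33 (73.3%) and CASP6 and CASP9 had 29 (64.4%). Over all transcripts of CASP8 and CASP10, the longest run of bases in common was also 28.

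CASP10 (ENSG00000003400), an initiator caspase recruited to death receptors, was listed in HepG2. It stood under 98 GO terms, of which 63 were biological processes, and in 5 KEGG pathways. Of its 98 terms, 78 (79.6%) also held FAS and 72 (73.5%) also held TNFRSF10B. CASP8 (ENSG00000064012), its neighbour in the genome and the main initiator caspase of this arm, was in neither list, and nor was CFLAR, the neighbour on the other side, whose product resembles caspase-8 and blocks its activation. ALS2CR12, the next gene beyond CASP8, was listed in HepG2 and not in Huh7, as CASP10 was. In CASP8 all stretches of 75 bases were found in no other gene, and in CASP10 99.6%.

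CASP9 (ENSG00000132906), the initiator caspase of the apoptosome, was in neither list, with 99.4% of its stretches of 75 bases found in no other gene. Among the 6 genes of the mitochondrial arm, DIABLO, whose product relieves the inhibition of caspases, was listed in Huh7, whereas APAF1, CYCS, HTRA2, AIFM1 and ENDOG were listed in neither line. DIABLO shares 29.6% of its exonic bases with a separate GENCODE gene of the same name and 16.8% with AC048338.1, both on the same strand, so which gene gave its reads is uncertain. CASP2, a further initiator caspase, was listed in HepG2. Initiator caspases thus gave 2 of 4 genes in HepG2 and 0 of 4 in Huh7, against backgrounds of 21.6% and 19.7%. Whether the lines differ in this was not tested.

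CASP6 (ENSG00000138794) encodes an executioner caspase that cleaves nuclear lamins, and was listed in both lines. It stood under the same 82 GO terms in each, and in 1 KEGG pathway, Apoptosis. Of the terms, 48 were biological processes, 21 cellular components and 13 molecular functions. They come from the annotation of the gene, so they are the same wherever CASP6 is listed. The CASP6 transcripts were short, with a longest transcript of 1548 bases, in the lowest quartile of protein-coding genes by length. In that quartile 19.4% of genes were listed in HepG2 and 18.3% in Huh7, against 25.5% and 23.5% in the second, 24.1% and 22.4% in the third, and 26.5% and 23.2% in the highest quartile, which holds CASP10 with 5928 bases. The lowest quartile was below the others, with no steady rise among them. These shares are of protein-coding genes, of which 23.9% and 21.9% were listed in all, and not of the GO background.

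The inflammatory caspases CASP1 and CASP4 were listed in HepG2 and CASP5 in Huh7, while CASP12 and CASP14 were in neither list. These are 2 of 5 genes (40.0%) and 1 of 5 (20.0%). Over all 10 caspases counted, 5 (50.0%) were listed in HepG2 and 2 (20.0%) in Huh7. The backgrounds were 21.6% and 19.7%, so both Huh7 shares were near theirs. The 12 death and decoy receptors gave 8 listed genes in HepG2 (66.7%) and 6 in Huh7 (50.0%), against backgrounds of 21.6% and 19.7%. The 6 in common were all of the Huh7 receptors and 6 of the 8 HepG2 receptors, where over all listed genes the shared part was 52.2% and 47.7%. The receptor figures include TNFRSF6B, TNFRSF10C and NGFR, named above as uncertain. The GO term death receptor activity held 3 of 12 genes (25.0%) in each line. Tumor necrosis factor-activated receptor activity held 2 of 10 (20.0%) in each, so both terms were near the backgrounds. None of the 8 genes described was under either term, so these shares do not bear on them. Of the 12 receptors, death receptor activity held TNFRSF25 and NGFR in HepG2 and NGFR in Huh7. The lines had 1 listed gene in common under the first term and 0 under the second. Over all 58 genes of the role lists, 16 (27.6%) were listed in HepG2 and 13 (22.4%) in Huh7.

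**Figure D3:**
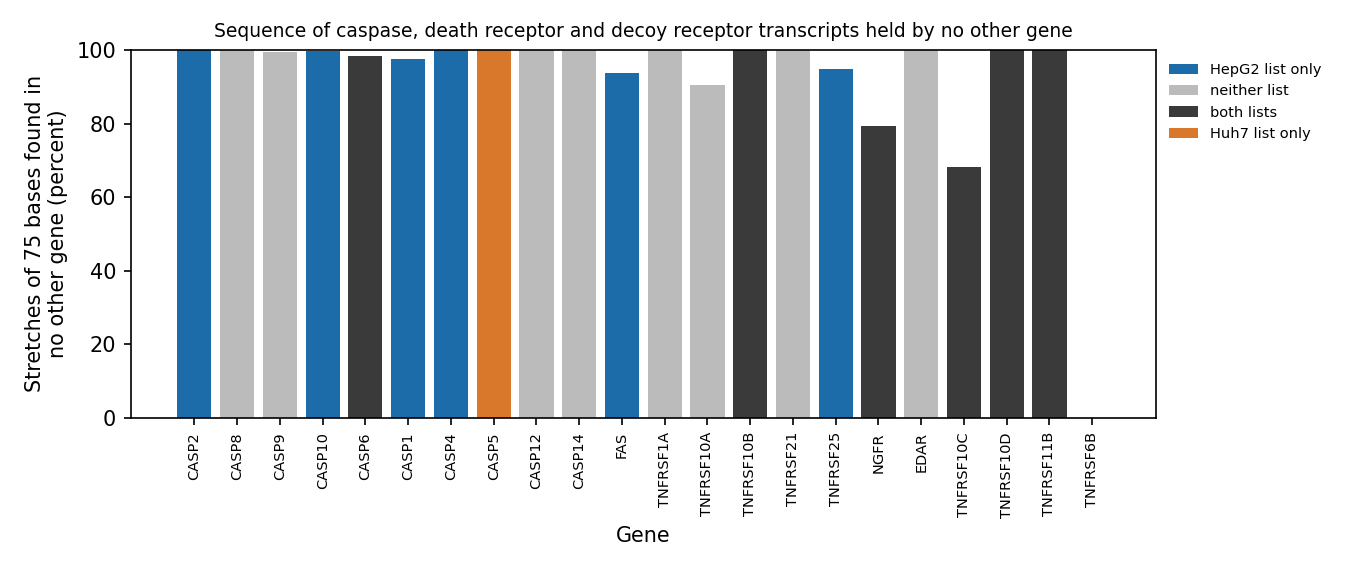
Bars give, for the caspases, death receptors and decoy receptors counted here, the percent of the stretches of 75 bases in its GENCODE transcripts that occur in no transcript of another gene, on either strand, coloured by the lists that hold the gene. TNFRSF6B stands at 0, TNFRSF10C at 68.1% and NGFR at 79.3%, and FAS at 93.8% and TNFRSF10A at 90.6% share stretches with antisense or opposite genes.

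None of the 8 caspase inhibitors was listed in either line. They were CFLAR, XIAP, BIRC2, BIRC3, BIRC5, BIRC6, BIRC7 and NAIP. The 6 caspase substrates and nucleases, DFFA, DFFB, PARP1, LMNA, GSDME and ROCK1, were also in neither list. The same held for the 3 necroptosis genes, RIPK3, MLKL and ZBP1. The GO term necroptotic process was not found in either table. It was looked for by that exact name, so whether it had no listed gene or another name is not known. The backgrounds were 21.6% and 19.7%, so a list of 6 to 8 genes would hold 1 or 2 listed genes at that share.

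The KEGG pathway Apoptosis had 23 of 86 genes listed in HepG2 (26.7%, 95% Wilson interval 18.5% to 36.9%) and 14 of 86 in Huh7 (16.3%, 95% Wilson interval 9.95% to 25.5%). The intervals cover counting error only, treat the genes as independent draws, and overlap. Summed over all pathways, with a gene counted once in each of its pathways, 26.3% were listed in HepG2 and 25.8% in Huh7, so Apoptosis was near the whole table in HepG2 and below it in Huh7. The Huh7 interval holds the share of 19.7% over the GO background, and its upper end lies just under 25.8%. Among pathways with at least 10 background genes, it ranked 126 of 272 in HepG2 and 231 of 274 in Huh7 by the share listed.

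All 4 of the genes listed in HepG2 and both listed in Huh7 were among the listed genes of Apoptosis, as the same calls and their pathway annotation determine. They made up 4 of its 23 genes and 2 of its 14 genes. The 2 lines had 8 Apoptosis genes in common, which is 34.8% of the HepG2 genes and 57.1% of the Huh7 genes, beside 47.7% and 52.2% over all listed genes. These were CASP6, TNFRSF10B, TNFRSF10C, TNFRSF10D, IL1A, IRAK3, PIK3CD and PIK3CG, and the last 6 share the listing of CASP6 and TNFRSF10B in both lines. A further 15 genes were listed in HepG2 alone, as FAS and CASP10 were, and among them were TRAF2, BAX, which encodes a pore-forming protein of the mitochondrial membrane, and NFKBIA, which encodes an inhibitor of NF-kappa B. A further 6 were listed in Huh7 alone, and among them were FASLG and IKBKG, which encodes a subunit of the kinase complex that activates NF-kappa B. The number 23 counts Ensembl identifiers, and the link of the same record names 21 KEGG genes (24.4% of 86), against 14 for 14 in Huh7.

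**Figure D4:**
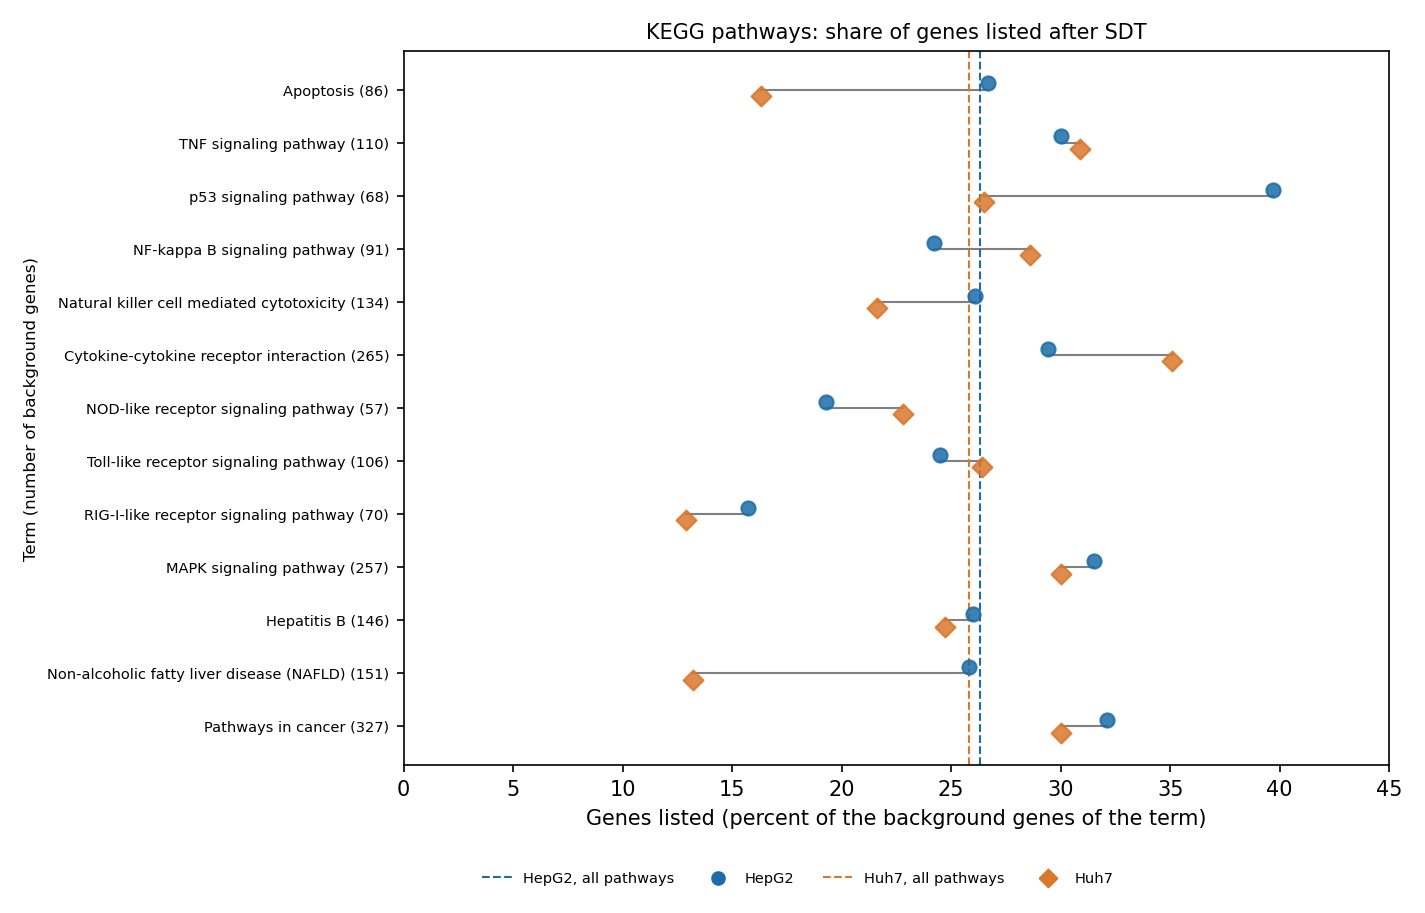
Points give the percent of the background genes of each of 13 KEGG pathways that were listed in HepG2 (blue circles) and Huh7 (orange diamonds), with dashed lines for the sum over all pathways. Apoptosis lies at 26.7% and 16.3%, and the p53 signaling pathway at 39.7% and 26.5%.

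In HepG2, 22 of 279 pathways held at least 1 of the 8 genes and 8 held more than 1. FAS was in 20 of these 22 pathways. In Huh7, 6 of 280 pathways held at least 1 of the 8 genes and 1 held more than 1. The p53 signaling pathway, which raises transcription of death receptors after DNA damage, had 27 of 68 genes listed in HepG2 (39.7%), FAS and TNFRSF10B among them, and 18 of 68 in Huh7 (26.5%), with TNFRSF10B. In Natural killer cell mediated cytotoxicity, 35 of 134 genes (26.1%) were listed in HepG2 and 29 (21.6%) in Huh7. Non-alcoholic fatty liver disease had 39 of 151 genes (25.8%) with FAS in HepG2, and 20 of 151 (13.2%) with FASLG in Huh7. Cytokine-cytokine receptor interaction ran the other way, with 78 of 265 genes (29.4%) in HepG2 and 93 (35.1%) in Huh7. Of the 13 pathways, 8 had more listed genes in HepG2 and 5 in Huh7, where the sums over all pathways were 6293 and 6184. These sums are 26.3% and 25.8% of the background genes, with a gene counted once in each of its pathways. The HepG2 shares of the natural killer and fatty liver pathways and the Huh7 share of p53 signaling were near these.

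Of 20 GO terms looked for, 19 were in the HepG2 table and 16 in the Huh7 table. Of the 16 terms in both tables, 11 had more listed genes in HepG2, 2 in Huh7 and 3 the same number. The HepG2 list was also the longer one over all genes, with 4783 genes (21.6%) against 4369 (19.7%). Apoptotic process, the broadest, held 550 of 2113 genes (26.0%) in HepG2 and 480 (22.7%) in Huh7, and every listed gene of the 8 was under it. The extrinsic apoptotic signaling pathway, which starts at death receptors, held 65 of 237 genes (27.4%) and 63 of 237 (26.6%), with FAS and TNFRSF10B in HepG2 and TNFRSF10B in Huh7. Its branch through death domain receptors held 19 of 89 genes (21.3%) and 21 of 89 (23.6%). The intrinsic apoptotic signaling pathway held 93 of 298 genes (31.2%) and 70 of 298 (23.5%), and TNFRSF10B was under it in both lines. The intervals of the extrinsic pathway, 22.1% to 33.4% and 21.4% to 32.5%, lie above the backgrounds but hold the protein-coding shares. For the intrinsic pathway they were 26.2% to 36.7%, above both HepG2 reference shares, and 19.0% to 28.6%, which holds both Huh7 ones.

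The terms for caspase activity differed in their gap between the lines. The backgrounds were 21.6% in HepG2 and 19.7% in Huh7, and several of the shares below lie near them. Cysteine-type endopeptidase activity, the GO name of the wider enzyme class, held 25 of 123 genes in HepG2 (20.3%) and 22 of 123 in Huh7 (17.9%). Its regulation in apoptosis held 67 of 235 (28.5%) and 49 of 235 (20.9%). For this regulation the HepG2 interval of 23.1% to 34.6% lies above the background but holds the protein-coding share of 23.9%. Its Huh7 interval of 16.1% to 26.5% holds the background. Execution phase of apoptosis held 22 of 76 genes in HepG2 (28.9%), CASP6 and CASP10 among them, and 12 of 76 in Huh7 (15.8%), with CASP6. Its 95% Wilson intervals of 20.0% to 40.0% and 9.27% to 25.6% hold the backgrounds and cover counting error only. Activation of caspases in apoptosis, named in GO by their cysteine-type endopeptidase activity, held 30 of 100 genes with CASP10, FAS and TNFRSF10B in HepG2, and 20 of 100 with TNFRSF10B in Huh7. The 15 genes annotated with caspase activity itself in apoptosis gave 5 listed genes in HepG2 (33.3%), CASP6 and CASP10 among them, and 3 in Huh7 (20.0%), with CASP6. None of these differences between the lines was tested, since each rests on 1 library a group.

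**Figure D5:**
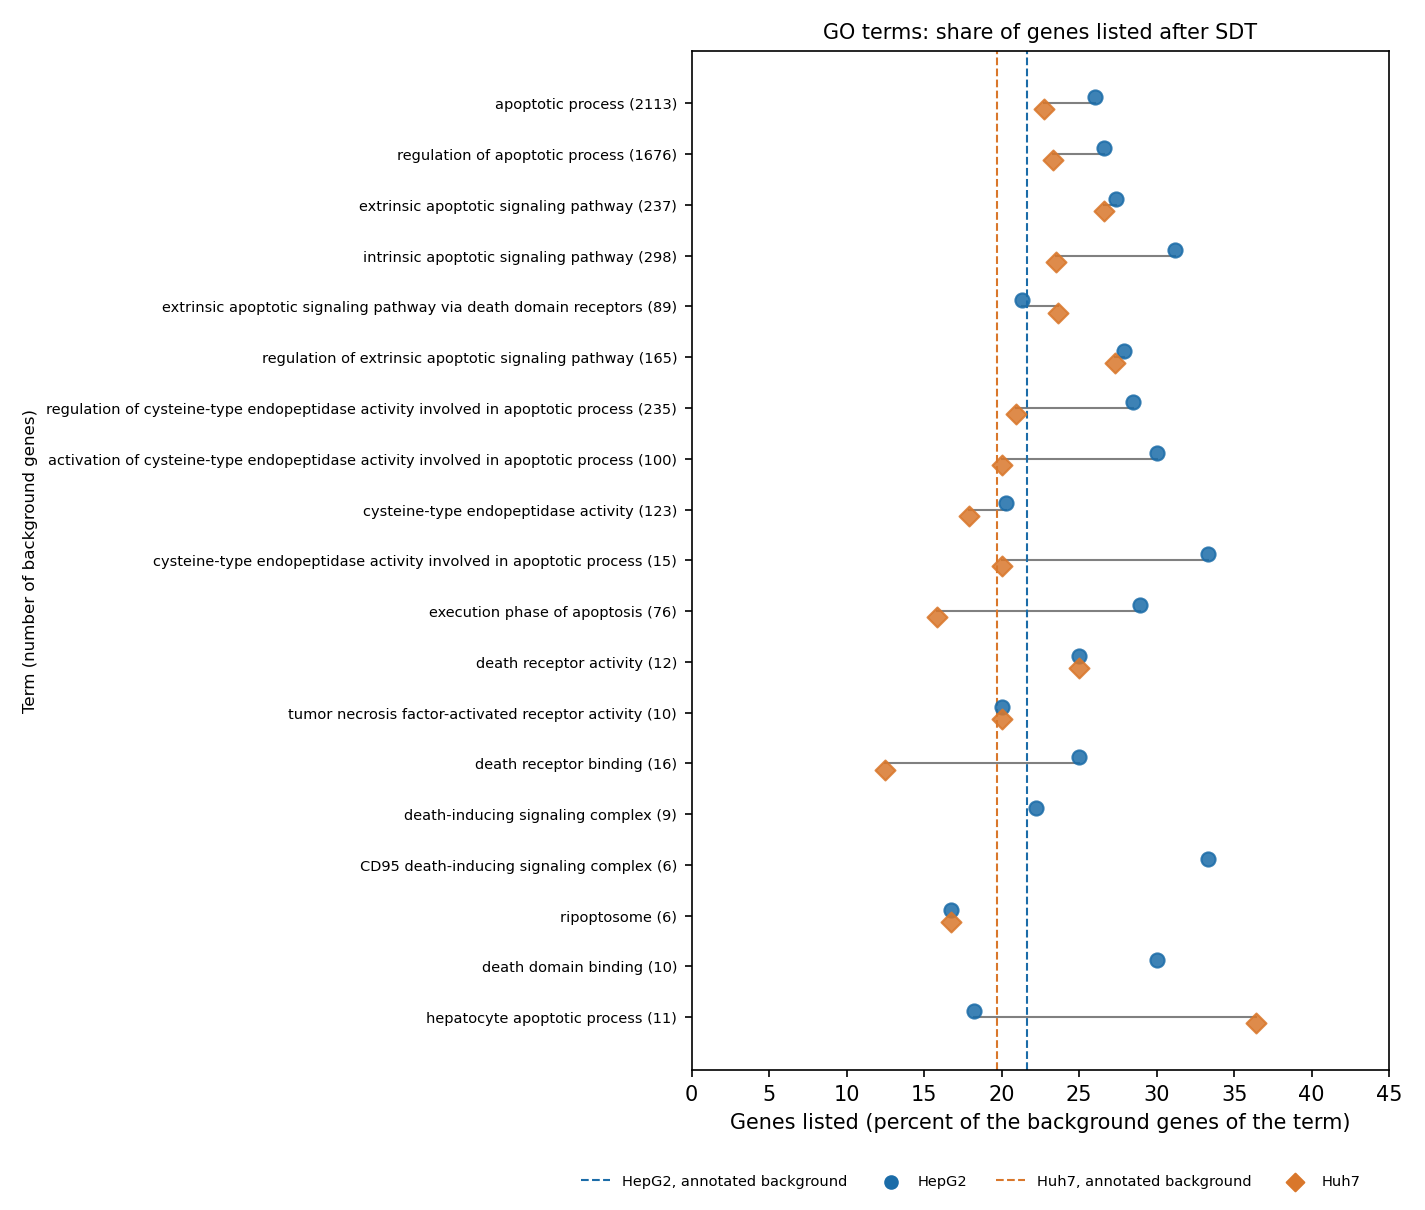
Points give the percent of the background genes of each GO term that were listed in HepG2 (blue circles) and Huh7 (orange diamonds), with dashed lines for the annotated background of 21.6% and 19.7%. A term with 1 point was in the HepG2 table alone, and execution phase of apoptosis lies at 28.9% and 15.8%.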

How the data were processed

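Groups were taken from the sample labels, with 1 library in each of 4 groups. The authors called mRNAs as differentially expressed where the adjusted p-value was under 0.05, and their methods name Cuffdiff on FPKM values where their results name edgeR. The submitters' processing notes name Bowtie2 2.2.8, HISAT2, StringTie 1.3.1 and Cuffdiff 2.1.1. The genome build is not given in the sources used here. The deposited GO (GOseq) and KEGG (KOBAS) tables hold numbers of genes, gene identifiers, p-values and corrected p-values. The deposited p-value columns were not used here, nor were lncRNAs and circRNAs. Read numbers per library were not used here, since these tables hold numbers of genes.

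The union of identifiers over all GO terms had the list size stated in each table. The members and lists were chosen with earlier results of these data known. The genes named are the 8 genes, the role lists and the listed Apoptosis genes. Some genes of the role lists are not reported here. Others, such as ACTA2 and ALS2CR12, and the term TRAIL binding were chosen after their values were seen. Transcripts and gene types came from GENCODE release 29, which may differ from the authors' annotation, and the scripts were tested on simulated data. Python 3.11.15 and scipy 1.17.1 were used.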

Additional observations from a re-analysis of the deposited data

How the results depend on the processing

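The counts of the 8 genes stayed at 4 for HepG2, 2 for Huh7 and 2 shared, with the same genes, when the KEGG table replaced the GO table, when both tables were joined, when GO terms were limited to those with at most 500 background genes, and when biological process terms alone were used. These settings draw on the same calls, and each listed gene has both biological process terms and a KEGG pathway, so they bear on the annotation and say nothing about the calls. The Apoptosis count of 23 in HepG2 was 22 when its genes also had to be in the GO list, and 21 as distinct KEGG genes, an alternative chosen after seeing the data. The count of 14 in Huh7 did not move. The background share depended on its denominator. It was 26.3% in HepG2 and 25.8% in Huh7 summed over KEGG pathways, where a gene counts once per pathway, and 23.9% and 21.9% of protein-coding genes, an alternative chosen after seeing the data. The cause was not tested. With stretches of 150 bases in place of 75, chosen after seeing the data, the share of sequence in no other gene was 0 for TNFRSF6B, 76.4% for TNFRSF10C, 86.4% for NGFR, 95.9% for FAS and 97.3% for TNFRSF10A. No paired analysis was possible because each group has 1 library and no test was made. A call may depend on depth and expression level, which the tables do not hold.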

Other observations

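The TNF superfamily was counted by symbol after the values above were seen. Of 21 protein-coding genes whose symbol begins with TNFRSF, 8 (38.1%) were listed in HepG2 and 8 in Huh7, with 6 in common. The 6 were TNFRSF10B, TNFRSF10C, TNFRSF10D, TNFRSF11B, TNFRSF6B and TNFRSF9. All but TNFRSF9 were already counted above, and TNFRSF6B and TNFRSF10C were named there as uncertain. Of 11 protein-coding genes whose symbol begins with TNFSF, 8 (72.7%) were listed in HepG2 and 5 (45.5%) in Huh7. All 5 were in both lists. Over all genes, 21.6% and 19.7% were listed, and the shared genes were 47.7% and 52.2% of the lists. The 5 TNFSF genes in both lists were TNFSF12, TNFSF13, TNFSF13B, TNFSF15 and TNFSF9. Of these, TNFSF12, the gene of the ligand TWEAK, and TNFSF15 have been linked to cell death. FAS, FASLG, TNF and NGFR have other symbols and are outside these counts.

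The 23 identifiers of Apoptosis in HepG2 include 4 whose own gene number, taken from GENCODE, is absent from the link of the same record. They are SPOUT1, NTRK3, PIK3R1 and AC107959.5. The link in turn names ENDOG and PIK3R3, which have no identifier of their own in the record. SPOUT1 overlaps 460 of the 1172 exonic bases of ENDOG (39.2%) on the opposite strand, and ENDOG itself was not in the GO list. AC107959.5 overlaps 249 of the 1868 exonic bases of TNFRSF10C (13.3%) on the same strand and was not in the GO list. In Huh7 all 14 identifiers had their own number in the link.

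The terms shared by the listed genes differed in extent. In HepG2 FAS and TNFRSF10B had 128 GO terms in common, 62.4% of the terms of FAS and 82.6% of those of TNFRSF10B, whereas CASP6 and TNFRSF10B had 28, 34.1% and 18.1%. The term cellular response to mechanical stimulus was noticed among the narrower terms of both receptors and was not chosen beforehand. It had 29 of 80 genes listed in HepG2 (36.2%), FAS and TNFRSF10B among them. In Huh7 it had 25 of 80 (31.2%), with TNFRSF10B, and 14 genes were in common. Over all background genes, 21.6% were listed in HepG2 and 19.7% in Huh7, and the shared genes were 47.7% and 52.2% of the lists.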
